A study of Mus musculus with 2 samples.

Results

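A peak at a gene 3' end is here a site of open chromatin near the annotated 3' end of a protein-coding gene. It lies away from the start sites of the transcript set used. The assay was DNase-seq, in which nuclei are treated with the nuclease DNase I and the cut ends are sequenced, so that open chromatin shows as peaks of cuts. The tissue was whole kidney from B6CASTF1/J males aged 25 days, the F1 offspring of C57BL/6J and CAST/EiJ. The series holds 2 libraries of this 1 group, replicate 1 and replicate 2, from different biosamples and animal numbers under the same donor code. There is no treated, mutant or control group, so regions are compared within each library and no test between animals was possible. A member is a peak of replicate 1 that overlapped a peak of replicate 2. Its midpoint lay within 500 bp of the 3' end of a protein-coding gene of GENCODE M21. The midpoint was also outside any coding sequence and more than 2.5 kb from every transcription start site (TSS) of the basic transcript set. By this rule 885 of the 125393 peaks of replicate 1 were members. Position and recurrence chose them, and height, footprints and sequence did not. Where a pair of values is given, replicate 1 comes first.

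The 3' end of a gene carries the untranslated tail of the transcript (the 3' UTR) and the start of the stretch over which RNA polymerase II is released. It also carries the AATAAA signal, which directs the cleavage and polyadenylation of the RNA. The sequence around the cleavage site is rich in A and T. Open sites away from promoters are as a class known to include enhancers, silencers and sites of the zinc finger protein CTCF, which halts cohesin and so anchors chromatin loops according to the direction of its motif. A footprint is a short stretch inside an open site that is cut less than its surroundings, as happens where a protein covers the DNA.

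The sequences of 8 member peaks follow, because they show what the highest sites and the sites at kidney genes look like at the base level. They are whole peaks of replicate 1 that overlap no annotated exon, written 5' to 3' on the strand of the gene, with the bases inside replicate 1 footprints in capitals (RefSeq sequence of GRCm38.p6, on which mm10 is based). Fam120a lies at chr13:48878681-48878880 (minus strand) and Ctdsp1 at chr1:74397361-74397580 (plus). These are the highest members by the geometric mean of both heights. Bcan lies at chr3:87987001-87987180 (minus) and Acvrl1 at chr15:101145521-101145700 (plus), and both hold the CTCF core. Ggt1 at chr10:75586341-75586500 (plus), Pck1 at chr2:173159381-173159600 (plus), Rhbg at chr3:88242621-88242800 (minus) and Cldn14 at chr16:93918441-93918640 (minus) belong to genes of the renal tubule.
Fam120a: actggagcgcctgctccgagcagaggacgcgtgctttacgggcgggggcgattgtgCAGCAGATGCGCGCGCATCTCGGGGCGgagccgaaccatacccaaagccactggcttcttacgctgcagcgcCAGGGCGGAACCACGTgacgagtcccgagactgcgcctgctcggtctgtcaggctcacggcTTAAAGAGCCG
Ctdsp1: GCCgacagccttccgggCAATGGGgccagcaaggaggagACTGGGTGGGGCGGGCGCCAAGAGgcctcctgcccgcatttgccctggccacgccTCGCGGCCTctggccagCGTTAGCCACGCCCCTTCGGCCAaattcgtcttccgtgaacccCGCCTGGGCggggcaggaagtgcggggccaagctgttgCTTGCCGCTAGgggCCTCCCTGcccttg
Bcan: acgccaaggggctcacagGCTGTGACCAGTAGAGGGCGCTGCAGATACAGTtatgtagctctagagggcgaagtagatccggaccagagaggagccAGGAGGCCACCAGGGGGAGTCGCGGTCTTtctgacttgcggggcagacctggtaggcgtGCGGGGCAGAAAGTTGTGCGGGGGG
Acvrl1: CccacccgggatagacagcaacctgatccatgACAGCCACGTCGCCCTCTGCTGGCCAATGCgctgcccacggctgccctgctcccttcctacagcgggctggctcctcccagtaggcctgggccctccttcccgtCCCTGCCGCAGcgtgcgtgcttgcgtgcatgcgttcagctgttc
Ggt1: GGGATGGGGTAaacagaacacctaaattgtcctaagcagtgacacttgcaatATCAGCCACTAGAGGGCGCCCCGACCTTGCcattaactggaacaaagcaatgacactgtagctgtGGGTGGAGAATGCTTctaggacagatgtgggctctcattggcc
Pck1: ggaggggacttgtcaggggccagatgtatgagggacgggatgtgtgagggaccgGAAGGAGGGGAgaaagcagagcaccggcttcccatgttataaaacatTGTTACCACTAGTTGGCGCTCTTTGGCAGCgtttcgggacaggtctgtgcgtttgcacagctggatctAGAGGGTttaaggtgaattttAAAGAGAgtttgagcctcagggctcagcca
Rhbg: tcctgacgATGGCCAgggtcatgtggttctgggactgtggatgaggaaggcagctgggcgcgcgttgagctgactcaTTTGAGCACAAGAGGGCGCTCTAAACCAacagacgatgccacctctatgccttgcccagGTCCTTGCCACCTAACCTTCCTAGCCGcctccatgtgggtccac
Cldn14: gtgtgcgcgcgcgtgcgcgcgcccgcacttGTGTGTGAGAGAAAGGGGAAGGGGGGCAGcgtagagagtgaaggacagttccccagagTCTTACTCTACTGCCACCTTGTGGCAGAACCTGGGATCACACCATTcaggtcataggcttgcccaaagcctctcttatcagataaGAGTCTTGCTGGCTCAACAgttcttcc
The Fam120a peak held the KLF/SP letters GGGCGG 3 times, and 1 of these lay wholly inside a replicate 1 footprint. The Ctdsp1 peak held the same letters in 2 places, again with 1 wholly inside a footprint. In Ggt1 the longest footprint covers a CTCF core, and in Pck1 and Cldn14 a footprint overlaps a core with 1 mismatch. The Rhbg peak held the AP-1 letters TGANTCA and the E-box CAGCTG once each, both outside its replicate 1 footprints.

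Short windows around the CTCF core show the letters shared by members of otherwise different sequence. Each window below has 30 bases, with the 12 bases of the core in capitals, written 5' to 3' on the strand of the match, which is where it differs from the list above. Ripor1 lies at chr8:105622557-105622586 (plus), Dand5 at chr8:84815722-84815751 (minus), Lhx5 at chr5:120440903-120440932 (minus), Pitx3 at chr19:46135438-46135467 (plus), Rdh5 at chr10:128913379-128913408 (minus), Aak1 at chr6:87002937-87002966 (minus), Avpr2 at chrX:73895902-73895931 (minus) and Ppp1r1a at chr15:103530538-103530567 (plus).
Ripor1: gagctgtcgCCACCAGGGGGCagcagaact
Dand5: cgcttttagCCACTAGGTGGCaccgcgtcc
Lhx5: gacattgagCCACCAGGGGGCgccaactcg
Pitx3: tcccagagaCCACCAGGTGGCgtcgcagca
Rdh5: gagagatggCCACCAGAGGGCgcttttctc
Aak1: caaatactgCCAGCAGAGGGCgctcatctt
Avpr2: gctatggagCCAGCAGGGGGCgccttttct
Ppp1r1a: cctttatgtCCAGCAGATGGCgctttggca
A footprint of both libraries overlapped the core in each of these 8 members. In Rdh5 the replicate 1 footprint ran from 128913379 to 128913409, and the replicate 2 footprint had the same bounds. In Aak1 the replicate 1 footprint spanned 87002933 to 87002963 and the replicate 2 footprint 87002932 to 87002965.

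Few genes had an open site at the 3' end. Of 21938 protein-coding genes, 17329 had at least 1 base near the 3' end where a member could lie, and 894 of these (5.16%, exact 95% binomial interval 4.83 to 5.50) had a member. A single member was found at 829 genes, 64 genes had 2, and Pigv, which encodes an enzyme of GPI anchor synthesis, had 3. The shares count some positions more than once, because 21 gamma protocadherin genes on chromosome 18 share 2 end positions. Over distinct 3' ends the share was 875 of 17287 (5.06%). Without replicate 1, that is with all 1407 peaks of replicate 2 at these positions whether they recurred or not, the share of genes was 7.83%. The share varied by chromosome. On chromosome 11, 86 of 1267 genes (6.79%) had one, on chromosome 15, 51 of 665 (7.67%), and on chromosome 13, 19 of 650 (2.92%). On the X chromosome, 12 of 715 genes (1.68%) had a member, and on the Y chromosome 0 of 114. Male cells carry 1 X chromosome, and the part of copy number in this was not tested.

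The density of open sites around 3' ends was slightly above that of the surroundings. In replicate 1, 965 peaks met the position rule over 15.1 Mb of eligible sequence, 64.0 midpoints per Mb, against 55.3 per Mb in eligible sequence 2 to 10 kb from the nearest 3' end. In replicate 2 the values were 93.3 and 80.9 per Mb. The ratio was 1.16 in replicate 1 and 1.15 in replicate 2 (mean 1.16 ± 0.00386, SD, n = 2). Against all eligible sequence of the genome, at 34.0 and 50.6 per Mb, the density at 3' ends was 1.88 and 1.84 times as high, so most of the difference from the genome was already there in the 2 to 10 kb around the ends. Of the 965 peaks of replicate 1 at these positions, 91.7% (89.8 to 93.4) recurred in replicate 2, where 85.9% of all peaks outside coding sequence and more than 2.5 kb from every TSS did. This recurrence is part of the rule and is given as a description.

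The 3' end itself was a gap in the map of open sites. In the last 100 bp of genes replicate 1 had 24.6 peak midpoints per Mb (39 peaks, exact 95% Poisson interval 17.5 to 33.7). From 100 to 500 bp upstream it had 69.1 per Mb (62.5 to 76.2), and from 100 to 500 bp downstream 76.2 per Mb (69.6 to 83.3). In replicate 2 the last 100 bp had 36.6 per Mb (27.8 to 47.4) against 102 upstream and 110 downstream. The density in the last 100 bp was thus 0.357 of the upstream value in replicate 1 and 0.359 in replicate 2. The gap was seen for genes with promoter peaks in both libraries, at 25.9 per Mb against 79.8 upstream in replicate 1, and for the other genes, at 21.6 against 41.4. In 20 bp bins the lowest replicate 1 densities, 12.5 and 12.3 per Mb, lay on either side of the 3' end, with 4 peaks each. In replicate 2 these bins had 34.3 and 33.9 per Mb, and the lowest, 22.1 per Mb with 7 peaks, was the bin from -60 to -41 bp. The intervals cover counting error only.

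**Figure D1:**
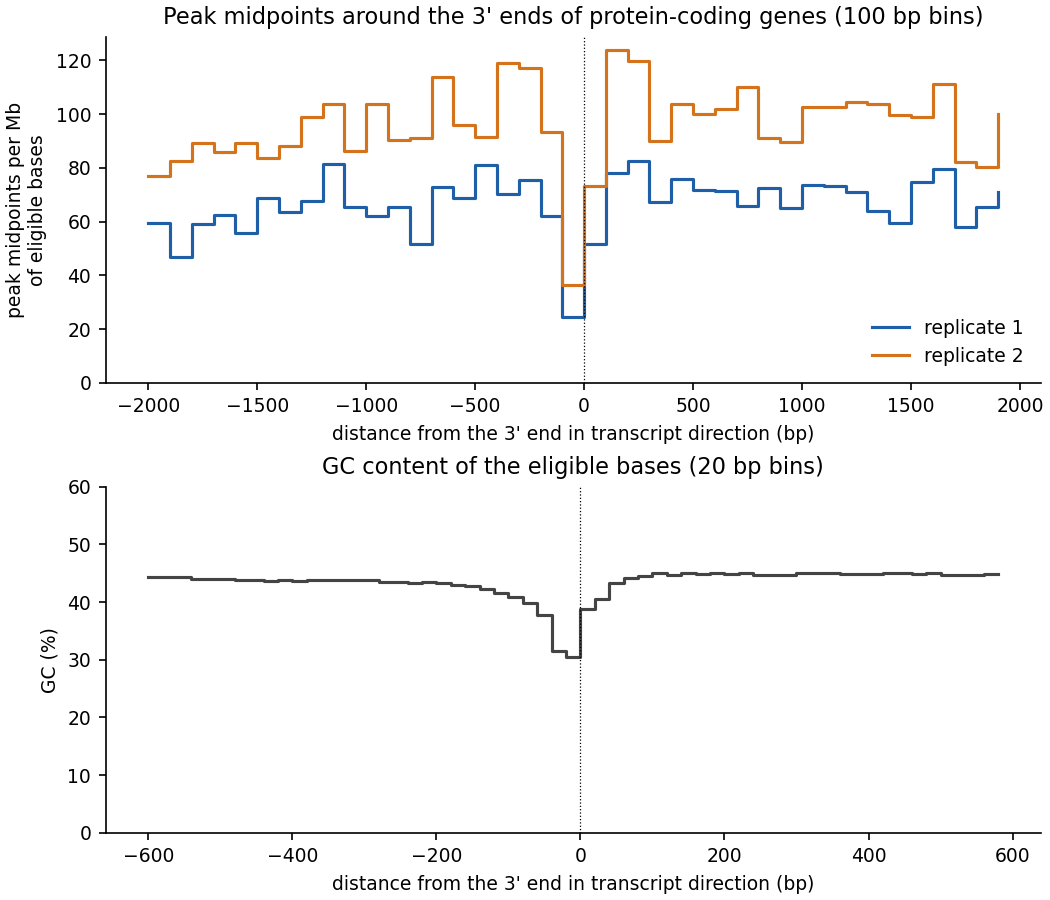
Density of peak midpoints per Mb of eligible sequence in 100 bp bins (top, 1 line per replicate) and GC content of the same kind of sequence in 20 bp bins (bottom), against the distance in bp from the 3' ends of protein-coding genes in the direction of transcription. Both lines drop in the last 100 bp of the gene, to 24.6 and 36.6 per Mb in the exact stretch, and GC content reaches its lowest value of 30.4% in the last 20 bp. In the top panel an end shared by several genes counts once for each gene, and in the bottom panel it counts once.

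GC content moved with the gap. It was 36.0% in the last 100 bp of genes, 43.4% upstream and 44.9% downstream. Windows of 100 bp that were wholly eligible were therefore grouped by their GC content. At 35 to 44% GC the last 100 bp had 12.4 midpoints per Mb in replicate 1, against 12.6 upstream and 12.2 downstream. At 45 to 54% GC the 3 values were 72.0 (43.3 to 112), 78.8 and 81.7. At 55% GC or more they were 261 (130 to 468), 267 and 276. Below 35% GC, where 7371 of the windows in the last 100 bp lay, the last 100 bp had 1 peak, and the upstream and downstream stretches had none, which allows up to 2.98 and 4.05 per Mb. In replicate 2 the windows of 45 to 54% GC had 94.7 (61.3 to 140), 128 and 122 per Mb, and those of 55% or more had 475 (290 to 734), 359 and 370. In the 3 bands from 35% GC up, the interval of the last 100 bp thus covered the values of both neighbouring stretches in both libraries. Between the bands the density rose steeply with GC in each stretch.

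**Figure D2:**
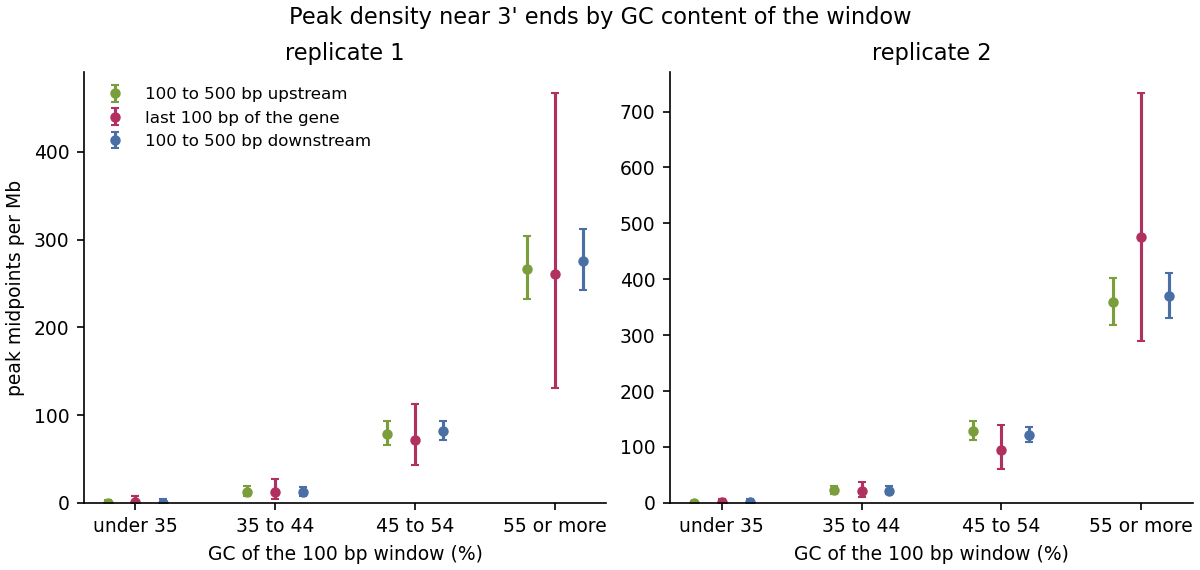
Peak midpoints per Mb with exact 95% Poisson intervals in 100 bp windows of 4 GC classes, for each replicate. Colours give the 3 stretches around the 3' end, and from 35% GC up the interval of the last 100 bp of the gene covers both neighbours, while the classes from 35% GC up differ from 12.4 to 261 per Mb there in replicate 1.

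Members lay more often beyond the 3' end than before it. The midpoint was downstream of the end in 507 members and inside the gene in 378 (42.7%, 39.4 to 46.0). There was also more eligible sequence downstream (8.11 Mb against 7.47 Mb), since coding bases were left out. Per Mb of it, replicate 1 had 71.1 peaks downstream and 62.0 inside, and replicate 2 had 102 and 90.6. At 2 to 5 kb from the end the order was the same, with 64.8 downstream and 57.2 inside in replicate 1. These densities count peaks and sequence once for each gene end, so ends shared by several genes count more than once. Over distinct 3' ends replicate 1 had 69.1 per Mb from 100 to 500 bp upstream and 76.2 per Mb from 100 to 500 bp downstream. The midpoint lay in the 3' UTR of a protein-coding transcript in 367 members, in an intron of some gene in 115, in another exon in 1 and outside all genes in 402. Only 89 members (10.1%) covered the base of the 3' end with the peak itself. Some windows were crowded: 54 members lay within 500 bp of the ends of 2 or more genes, and 128 lay inside the body of another protein-coding gene. Genes with a 3' end on the opposite strand within 1 kb had a member in 129 of 1602 cases (8.05%, 6.77 to 9.49), against 765 of 15727 (4.86%, 4.53 to 5.21) of the others. Such tail-to-tail pairs share their windows, so that 1 member can count for both genes.

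Peaks at 3' ends were higher than other distal peaks. The height is the value that the authors gave each peak, and classes of peaks are compared by height only within a library. The median member height was 1.24 in replicate 1 (quartiles 0.692 and 2.47) and 1.49 in replicate 2 (0.795 and 2.93). Shared peaks in introns had medians of 0.855 and 1.07, intergenic ones 0.820 and 1.03, and those in coding exons 0.872 and 0.989. Shared peaks 2 to 10 kb from a 3' end were closer to the members, at 1.09 and 1.39. Recurrence bears on these levels: all 1407 replicate 2 peaks at these positions, taken without replicate 1, had a median height of 0.800. In replicate 1, 349 members (39.4%) fell in the top quartile of the heights of the 67877 other shared distal peaks, and in replicate 2, 330 (37.3%) did. The stricter lists of both replicates held 617 members (69.7%, 66.6 to 72.7), where they held 64.0% of all shared distal peaks. Taken by library, the stricter list held 71.9% and 89.2% of members. For the peaks 2 to 10 kb from a 3' end these shares were 71.0% and 90.4%. Whole kidney is a mixture of cell types, and a high site open in few cells cannot be told apart from a lower one open in many.

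GC content moved with height as well. The median GC of the 150 bp at the midpoint was 54.7% in members and 52.0% in the other shared distal peaks. Below 50% GC, 201 members had a median height of 0.872 in replicate 1, and 171 members of 60% GC or more had 1.85. In the other distal peaks of these GC classes the medians were 0.675 and 1.38, so members were higher in each. In replicate 2 the members had 1.21 and 1.93 and the others 0.934 and 1.45. Against the peaks 2 to 10 kb away the order was less even. Members were higher in all 4 GC classes of replicate 1, but lower in replicate 2 below 50% GC (1.21 against 1.27) and from 55 to 59% (1.37 against 1.46).

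**Figure D3:**
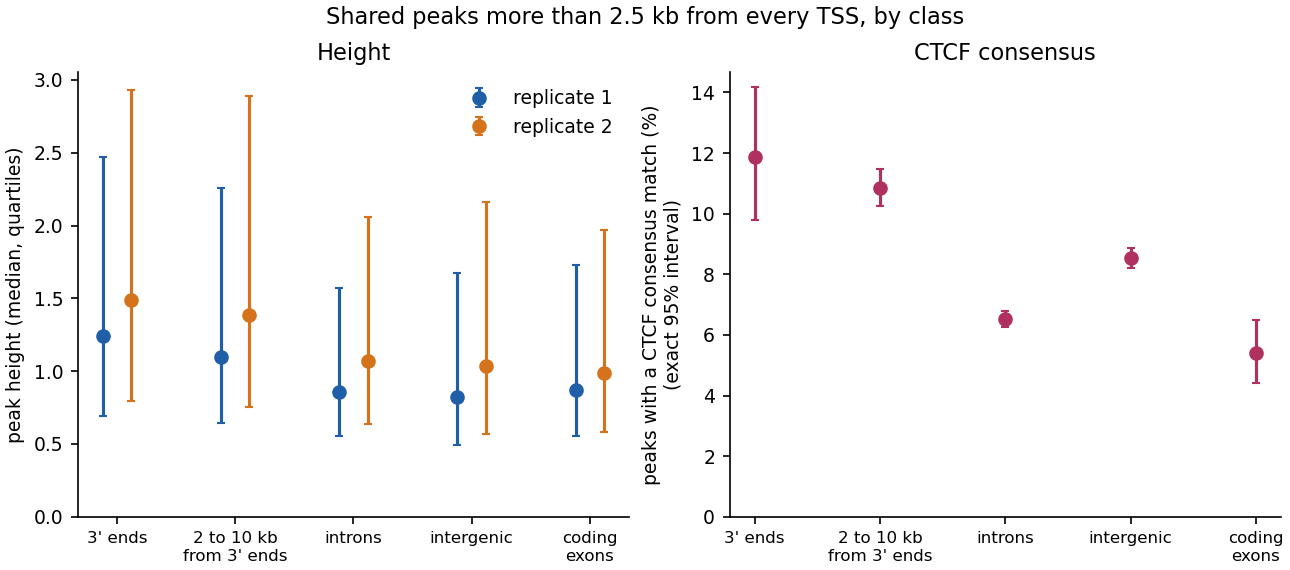
Left, median peak height with quartiles for each replicate. Right, percent of peaks with the CTCF core and its exact 95% interval, for the 885 members and 4 other classes of shared peaks more than 2.5 kb from every TSS. Members stand at 1.24 and 1.49 and at 11.9%, above introns, intergenic sequence and coding exons, and the peaks 2 to 10 kb from a 3' end lie next to them.

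Heights recurred between the animals. Across the 885 members the heights of both libraries had a Spearman rank correlation of 0.927 and a Pearson r of 0.934 on the log2 scale, which describes peaks that share their libraries and not independent samples. The median log2 ratio of replicate 2 over replicate 1 was 0.21 (SD 0.47 over members), and 612 members were higher in replicate 2. Within 2-fold of the median ratio lay 853 members (96.4%). The extremes, named after their values were seen, were Gbx2 with heights of 1.11 and 0.373 (log2 ratio -1.58) and Ubxn2a with 0.385 and 1.70 (log2 ratio 2.15). Over all shared distal peaks outside coding sequence the Spearman correlation was 0.909 and the Pearson r 0.923. Their median log2 ratio was 0.260 (SD 0.495), so members shared the offset between the libraries with other distal peaks. At the edge of the rule, the 92 members 450 to 500 bp from the 3' end had median heights of 1.44 and 1.87, and the 100 shared peaks just outside it, at 501 to 550 bp, had 1.38 and 1.75.

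The 20 highest members stood between 8.36 and 24.7 in replicate 1 and between 10.6 and 24.3 in replicate 2, far above the medians, and each was in the stricter list and carried a replicate 1 footprint. Of these 20, 10 lay outside genes, 9 in a 3' UTR and 1 in an intron, and their median GC content was 61.3%. Fam120a, which encodes an RNA-binding scaffold protein, had a member 438 bp beyond its 3' end with heights of 23.1 and 24.3. This was well above its own promoter peak, which had heights of 6.04 and 3.59. Ctdsp1, a small phosphatase of the RNA polymerase II tail, had a member 186 bp beyond its end with heights of 24.7 and 21.02, and here the promoter peak was also high, at 16.5 and 15.8. The Ctdsp1 member held more replicate 1 footprints than any other, 8, and 7 in replicate 2. Rtn2, a reticulon that shapes the endoplasmic reticulum, had a member in its 3' UTR with heights of 18.0 and 21.5. Bcan, the brain proteoglycan brevican, had one 440 bp beyond its end with heights of 16.1 and 19.5, and neither library had a peak at its promoter. Acvrl1, a receptor of the TGF-beta family known from endothelium, had one 275 bp beyond its end with heights of 17.0 and 18.0, against promoter heights of 2.07 and 2.89.

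Next in the order came Ripor1, a regulator of small GTPases, with heights of 14.2 and 18.9, and Rhoc, a small GTPase of the cytoskeleton, with 14.5 and 15.2. The nonagouti gene (symbol a), which encodes the agouti signalling protein of coat colour, had a member in its 3' UTR with heights of 14.7 and 13.4. Its promoter peak had a height of 0.487 in replicate 1 and was not called in replicate 2. Sertad1, a transcriptional coregulator, had heights of 13.9 and 12.2 at its end and 26.5 and 26.0 at its promoter. The member at Slc23a3, of the ascorbate transporter family, had heights of 11.0 and 15.4. A start site of the comprehensive transcript set, which the rule did not use, is 31 bp away. The remaining names among the 20 are 1700001O22Rik, Prss22, Dand5, Dtnb, Vamp2, Bcat2, Tnni1, Lhx5, Lrrc24 and Ror2. Of them Dtnb, a dystrophin-associated protein, had 13.1 and 10.6, Vamp2, a vesicle fusion protein, had 10.2 and 12.1, and Bcat2, the mitochondrial branched-chain aminotransferase, had 8.36 and 14.5.

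**Figure D4:**
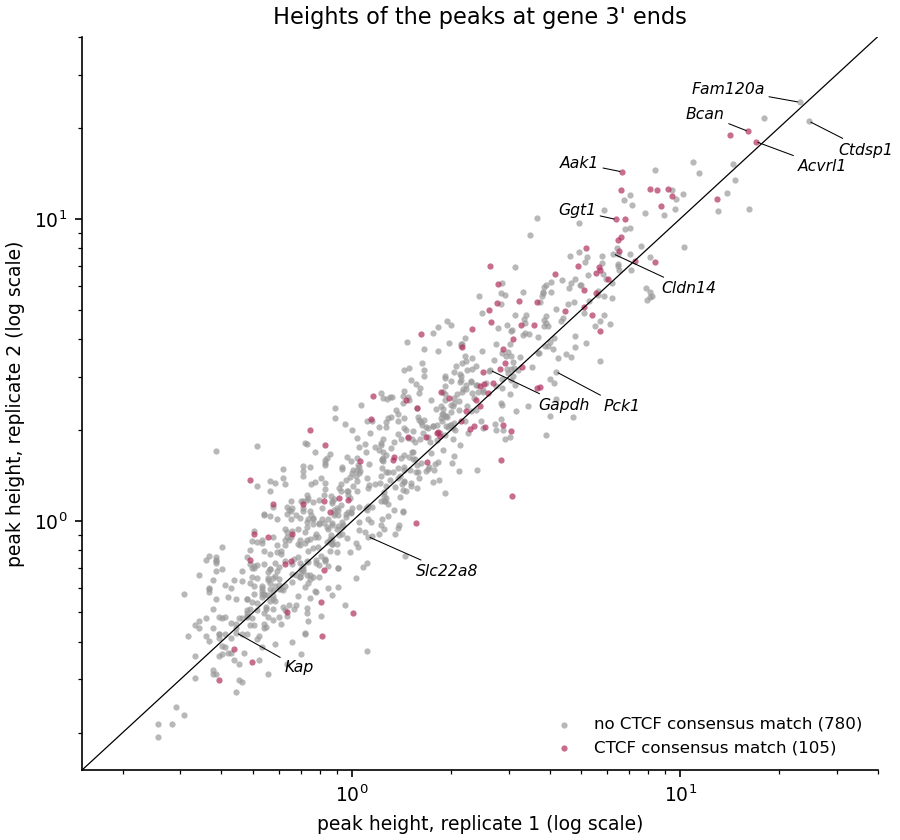
Height of each of the 885 members in replicate 1 (x) and replicate 2 (y), both on log scales, with equal heights on the line. Members with the CTCF core (105, red) run through the whole range but are denser at the top, and Fam120a (23.1 and 24.3) and Ctdsp1 (24.7 and 21.02) have the highest geometric means.

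The annotation sets a limit on these sites. In the comprehensive set of GENCODE transcripts 126 members (14.2%) lay within 2.5 kb of a TSS and 13 within 500 bp, while 8.02% of the other shared distal peaks lay within 2.5 kb of one. The share was 15.6% in shared peaks 2 to 10 kb from a 3' end, so members did not stand above these nearby peaks. In intergenic shared peaks it was 0.896%. Of the genes above, 1700001O22Rik was 1993 bp from such a TSS and Dtnb 2173 bp.

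Most members carried footprints. In replicate 1, 741 members (83.7%, 81.1 to 86.1) overlapped a footprint, where 79.5% of all shared distal peaks did. In replicate 2, 857 (96.8%, 95.5 to 97.9) did, where 95.8% of all did. Both libraries had a footprint in 727 members, and 14 members had none in either. The peaks 2 to 10 kb from a 3' end had footprints in 84.5% and 97.3%. The share rose with height. In the lowest height quartile of replicate 1, 38.2% (29.1 to 47.9) of members had a footprint, against 45.2% of the other shared distal peaks. In the next quartiles the shares were 73.9% against 80.3%, 91.6% against 92.4% and 98.6% against 98.9%. Members were thus below the others in each quartile of replicate 1, and the intervals of the members covered the value of the others in each quartile but the second, where the upper bound was 79.8%. In replicate 2 the shares from the lowest to the highest quartile were 84.1% against 86.2%, 96.8% against 97.3%, 99.57% against 99.47% and 100% against 99.98%. There members were below the others only in the lower quartiles, and their intervals covered the value of the others in each. Counted per kb of peak, members had 11.3 footprints in replicate 1 and 16.6 in replicate 2, against 9.66 and 15.6 over all shared distal peaks. The peaks 2 to 10 kb from a 3' end were close to the members, at 10.9 and 16.5.

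After Ctdsp1, the members with the most replicate 1 footprints were Tspyl2 with 7 and, as the 8 highest of 10 members with 6 each, Bad, Zmiz2, Phldb3, Vps8, Stxbp5, Rhpn1, Fmnl3 and Efnb1. Tspyl2, an X-linked nucleosome assembly protein, had a peak of 380 bp with heights of 7.61 and 8.14. Bad, a cell death factor of the BCL2 family, had a peak of 300 bp with heights of 8.91 and 10.3. Vps8, of the endosomal tethering complex, had heights of 3.44 and 2.41, with 6 footprints in replicate 1 and 2 in replicate 2. Efnb1, an ephrin ligand, had heights of 1.93 and 2.06, with 6 and 3 footprints. Ties were broken by height, so the other members with 6 footprints were lower than those named. The lower end of the heights given here was thus set by the choice of names.

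The CTCF core was more frequent at 3' ends than at other distal peaks. It was present in the central 150 bp of 105 members (11.9%, 9.81 to 14.2), where 7.45% of all shared distal peaks held it, 6.53% in introns and 8.54% in intergenic sequence. The share in peaks 2 to 10 kb from a 3' end was 10.8% (10.2 to 11.5), which lies inside the interval of the members. With 1 mismatch allowed, 253 members (28.6%, 25.6 to 31.7) held the core, where 22.0% of all shared distal peaks did. Members with an exact core were higher than the rest, with median heights of 2.60 and 2.78 against 1.12 and 1.38. From the lowest to the highest height quartile of replicate 1 the core was in 5.45% (2.03 to 11.5), 6.53% (3.52 to 10.9), 5.73% (3.08 to 9.59) and 20.9% (16.8 to 25.6) of members, and in 2.89%, 3.44%, 5.76% and 17.4% of the others. In replicate 2 the same quartiles had 5.30% (2.16 to 10.6), 4.26% (1.85 to 8.21), 10.6% (7.004 to 15.3) and 19.7% (15.5 to 24.4) of members, and 2.25%, 3.50%, 6.42% and 17.3% of the others. The share in members was thus above that of the others in each quartile but the third of replicate 1. In the second quartile of replicate 1 and the third of replicate 2 the interval of the members lay above the share of the others. The quartiles of both libraries sort the same members and the same cores by correlated heights, so they are not independent comparisons. Below 50% GC it was in 17.4% of members (12.4 to 23.4) and 9.61% of the others, and at 60% GC or more in 5.85% (2.84 to 10.5) and 4.10%.

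A footprint overlapped most CTCF cores in members, in whole or in part. The 105 members held 106 exact cores, of which 97 overlapped a replicate 1 footprint (91.5%, 84.5 to 96.0) and 105 a replicate 2 footprint. In the other shared distal peaks 89.5% and 98.6% of cores did. The footprints on the cores had a median width of 28 bp in replicate 1 and 32 bp in replicate 2. The core lay on the strand of the gene in 62 of 106 cases (58.5%, 48.5 to 68.0), an interval that includes equal use of both strands. The 10 highest of these members were Bcan, Acvrl1, Ripor1, Dand5, Lhx5, Ror2, Pitx3, Rdh5, 1700029H14Rik and Aak1. Dand5, a secreted antagonist of Nodal and BMP signals, had 12.9 and 11.6. Ror2, a receptor for Wnt5a, had 2 cores in 1 peak with heights of 9.45 and 11.9. Pitx3, a homeobox factor, had 8.51 and 12.5, Rdh5, a retinol dehydrogenase, had 8.11 and 12.6, and Aak1, a kinase of clathrin-coated vesicles, had 6.65 and 14.3.

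Among 13 other motifs, searched on both strands in the same 150 bp, GGGCGG of the KLF and SP factors differed. It was in 97 members (11.0%, 8.98 to 13.2) and in 7.94% (7.74 to 8.15) of the other shared distal peaks. These letters are all G and C, and members had the higher median GC content, 54.7% against 52.0%. The share of this motif was not compared at equal GC content or with the peaks 2 to 10 kb from a 3' end. For the rest the intervals of members and others overlapped. The poly(A) signal AATAAA was in 9.15% of members and 7.89% of the others. The share was 4.52% against 6.03% for AP-1 (TGANTCA), 4.97% against 5.49% for HNF1 (GTTAAT) and 13.7% against 15.2% for the nuclear receptor element AGGTCA. It was 2.60% against 1.67% for ETS (CCGGAAG), 2.03% against 2.14% for forkhead factors (TGTTTAC), and 0.791% against 1.01% for HNF4 (CAAAGTCCA). TEAD (GGAATG) was in 10.5% and 10.7%, NFI (TTGGCA) in 13.7% and 15.3%, the E-box CAGCTG in 16.0% and 15.5%, NRF2 (TGACTCAGC) in 0.791% and 0.740%, and ESRR (TCAAGGTCA) in 0.226% and 0.451%. The NRF2 letters contain an AP-1 match and the ESRR letters contain AGGTCA. A match describes letters only and does not show binding.

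Genes with an open 3' end mostly had an open promoter too. Of the 894 genes with a member, 726 (81.2%, 78.5 to 83.7) had, in both libraries, a promoter peak, meaning one that overlaps the 500 bp on either side of a start site, where 68.8% of all eligible genes did. Read the other way, 726 of 11928 genes with promoter peaks in both libraries had a member (6.09%, 5.66 to 6.53), against 134 of 4772 genes with none (2.81%, 2.36 to 3.32). Gene length showed no steady trend, with members at 4.85%, 6.16%, 5.03% and 4.59% of genes from the shortest to the longest quartile. Where the nearest gene had promoter peaks in both libraries, 593 of 728 members (81.5%) were lower than the highest of them in both, and 91 (12.5%) were higher in both.

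The 128 members whose nearest gene had no promoter peak in either library were no lower than the rest, with median heights of 1.55 and 1.80 against 1.22 and 1.48 where both libraries had one. The 10 highest were Bcan, Prss22, Dand5, Tnni1, Lhx5, Slc25a37, Upk3b, Stac3, Gm29797 and Cldn14, and several are known for other tissues than kidney. Prss22, a serine protease of airway epithelium, had heights of 11.4 and 14.2. Tnni1, troponin I of slow muscle, had 9.43 and 12.5, and Lhx5, a LIM homeobox factor of the forebrain, had 9.20 and 12.5. Slc25a37, the mitochondrial iron importer mitoferrin of red cell precursors, had 6.60 and 12.4. Cldn14, a claudin that limits calcium reabsorption in the thick ascending limb, had 6.26 and 7.66. For these genes the member was the only one of the 2 kinds of site that was called.

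Genes of the renal tubule were among those with a member. In the proximal tubule list 6 of 37 eligible genes (16.2%, 6.19 to 32.0) had one, against 5.16% of all eligible genes. The list counts are small and the lists were drawn up with earlier results of these data known, so they are descriptions. Ggt1, the brush border enzyme that splits glutathione, had a member 221 bp beyond its end with heights of 6.38 and 9.95. This was above its promoter peak (2.77 and 2.92). Pck1, the rate-limiting enzyme of gluconeogenesis, had one 218 bp beyond its end with heights of 4.19 and 3.12, below its promoter (6.03 and 5.44). Slc22a8, the organic anion transporter OAT3, had one in its 3' UTR with heights of 1.12 and 0.889, and no promoter peak was called in either library. Napsa, an aspartic protease, had 0.718 and 0.606, Amn, the membrane anchor of cubilin, had 0.530 and 0.561, and Kap, an androgen-regulated kidney protein, had 0.444 and 0.427. These last 3 stood below the member medians in both libraries.

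In the loop of Henle list 3 of 14 genes had a member. Besides Cldn14 these were Ppp1r1a, a phosphatase inhibitor, with heights of 1.34 and 1.63, and Bsnd, the chloride channel subunit barttin, with 0.709 and 1.08. In the distal convoluted and connecting tubule 1 of 14 genes had one, Fxyd2, the gamma subunit that modulates the sodium pump, with 0.709 and 1.16. Among principal cell genes it was 1 of 15, Avpr2, the vasopressin receptor, with 2.51 and 3.11, and a start site of the comprehensive transcript set is 204 bp from the Avpr2 member. Intercalated cells had 2 of 13, namely Rhbg, an ammonium transporter, with 4.39 and 4.69, and Insrr, an alkali-sensing receptor, with 0.624 and 0.507. The podocyte list had 0 of 15, which allows a share of up to 21.8%, and the stroma and smooth muscle list 0 of 13 (up to 24.7%). Endothelium had 1 of 13, Plvap, a protein of fenestral diaphragms, with 1.80 and 2.34.

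**Figure D5:**
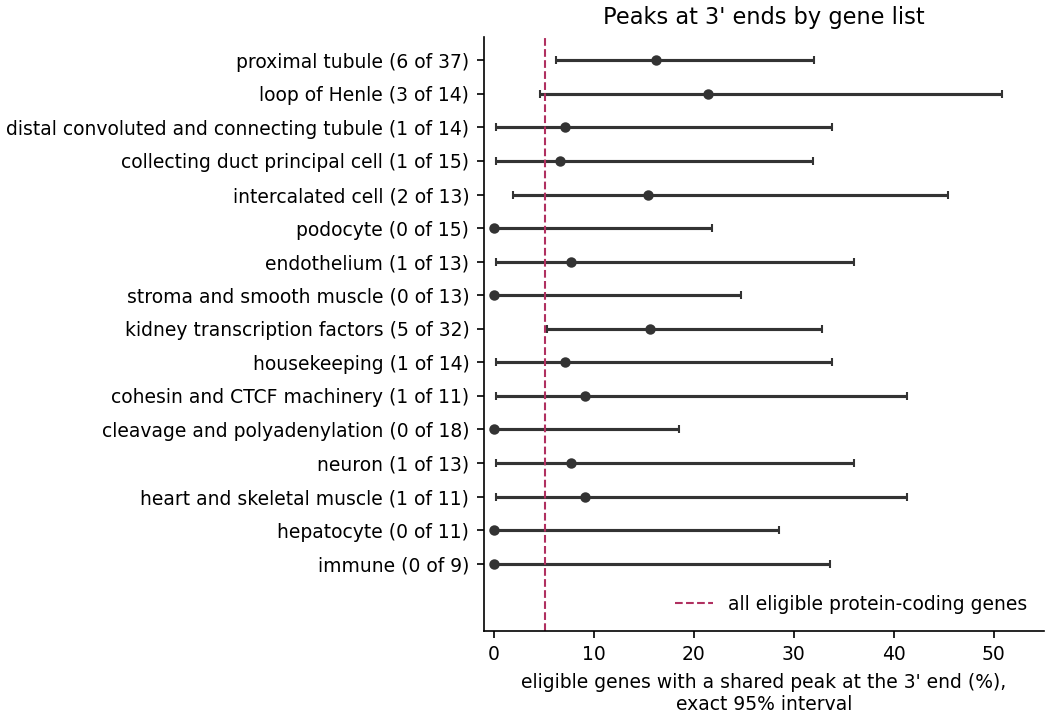
Percent of the eligible genes of each of 16 lists that had a member (points), with exact 95% intervals, and the share over all eligible genes (dashed line, 5.16%). Proximal tubule (16.2%) and kidney transcription factors (15.6%) have intervals above the line, and the other intervals include it. Eligible genes with promoter peaks in both libraries had a share of 6.09%, which is not drawn. It lies inside the interval of the factors (from 5.28%) and just below that of the proximal tubule (from 6.19%). The lists were drawn up with earlier results of these data known.

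Of the kidney transcription factors 5 of 32 (15.6%, 5.28 to 32.8) had a member. Tfeb, a regulator of lysosome genes, had one 212 bp beyond its end with heights of 2.39 and 2.34. Rxra, the partner of many nuclear receptors, had 1.59 and 1.46, Ppara, the regulator of fatty acid oxidation, had 1.04 and 1.54, and Mecom, a zinc finger factor, had 0.701 and 0.363. At each of the genes named here the promoter peak was called in both libraries, and for Tfeb it was far higher than the member, at 17.0 and 16.5.

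For the lists that are not about kidney cells, each interval included the 5.16% of all eligible genes. Housekeeping genes had 1 of 14, Gapdh, the glycolytic enzyme, with heights of 2.64 and 3.15, and this peak lies within 500 bp of the end of Iffo1 too and 856 bp from a comprehensive TSS. Cohesin and CTCF machinery had 1 of 11, Rad21, the cleavable cohesin subunit, with 0.726 and 0.869. Factors of cleavage and polyadenylation had 0 of 18, which allows up to 18.5%. The neuron list had 1 of 13, Rbfox3, whose member lies closer to the end of Engase, and heart and skeletal muscle had 1 of 11, Acta1. Hepatocyte (0 of 11) and immune (0 of 9) genes had none, which allows up to 28.5% and 33.6%.

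The libraries behind these values matched their label. Of 10 marker genes of kidney cells, 8 had a promoter peak in both libraries and 10 in replicate 2, with Aqp2 and Nphs1 lacking one in replicate 1, and 0 of 9 marker genes of other organs had one in either. Replicate 1 had 125393 peaks over 22.1 Mb and 237471 footprints, and replicate 2 had 177001 peaks over 31.1 Mb and 493495 footprints. No read number is known. The low heights rise in even steps, which are 1.72 times as large in replicate 1 as in replicate 2, as would follow if each height had been divided by the depth of its library.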

How the data were processed

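DNase-seq peaks and footprints of 2 kidney libraries on mm10 were used as deposited. Per the file descriptions, peaks came from the filtered reads of each library alone. Which aligner and callers were used is not given in the sources at hand, nor is whether alignment allowed for CAST/EiJ variants, which could lower peaks. The peak signal deposited by the authors is the height. The footprint lists deposited by the authors give a q-value of 0.01 in every row, read as a threshold. The longer peak list of each library was used, and the shorter one and the false discovery rates along the genome served as an alternative and were not used, respectively. From these files, overlaps of at least 1 bp, nearest 3' ends, densities per Mb of eligible sequence, exact 95% binomial and Poisson intervals and motif matches were computed (Python 3.11.15, numpy 2.4.6, pandas 2.3.3, scipy 1.17.1), with the interval code tested on simulated data. Gene models were GENCODE M21 basic transcripts. An eligible base was outside coding sequence and more than 2.5 kb from every TSS. Members, 16 gene lists and motifs were chosen with earlier results of these data known. Named are the 20 highest members by geometric mean height, the 10 with the most replicate 1 footprints, the 10 highest with a CTCF core, the 10 highest without promoter peak, genes with 3 members and list genes; 1 list gene with a member is not reported by name here. Absolute depth is unknown, so intervals cover counting error only. With 1 group, no samples were compared and no p-value was computed.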

Additional observations from a re-analysis of the deposited data

How the results depend on the processing

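Of 91 values under alternative settings, 58 stayed within the interval of the reported value and 33 moved. For the count of members the limit was 1.5-fold, and for the density ratio it was the SD of both libraries. Leaving out either library keeps the density ratio within that SD by construction, and reciprocal overlap does not enter that ratio. These outcomes were fixed in advance and do not show stability. No paired analysis was possible because the series has 1 group. The window set the counts: at 250 bp there were 417 members at 2.51% of eligible genes, 38.8% of them inside the gene, and at 1000 bp 1755 members at 8.99%. With 3' ends of any protein-coding transcript 6.71% of genes had a member, with the comprehensive transcripts 4.78%, and with 50% reciprocal overlap 4.78%. The density ratio, 1.16 as reported, stayed above 1 throughout: it was 1.08 at 250 bp, 1.18 at 1000 bp, 1.13 over 1 kb and 1.18 over 5 kb from every TSS, 1.17 with the ends of any transcript, 1.15 with comprehensive transcripts, 1.15 with the stricter peak lists and 1.07 against a flank of 1 to 5 kb. The stricter lists gave 3.69% of genes, median heights of 1.86 and 2.20, footprints in 94.4% and 99.7% and the CTCF core in 14.8%. Reciprocal overlap gave a median height of 1.35 and footprints in 86.5% in replicate 1. One mismatch, an alternative added after the data were seen, raised the CTCF share to 28.6%.

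Leaving out a library means taking all peaks of the other at these positions, recurring or not. The count then ranged from 965 (without replicate 2) to 1407 (without replicate 1), the share of genes from 5.56% to 7.83%, the density ratio from 1.15 to 1.16, the share inside the gene from 42.6% to 44.1% and the CTCF share from 8.10% to 11.0%. Without the other library the median height was 1.09 in replicate 1 and 0.800 in replicate 2, and footprints were in 79.6% and 90.3%. These sets hold the weaker peaks that the rule leaves out. Depth is unknown, and peaks that replicate 1 did not call are not among the members.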
